A study of Mus musculus with 24 samples.

Results

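The peaks described here are the sites called for ARID1B on chromatin of the wild-type mouse cortex at embryonic stage E18.5. All peaks of that ChIP-seq list on chromosomes 1 to 19 were taken, 67787 of the 68472 in the list and of the 311477 autosomal peaks in the 6 lists of the series. The study mapped transcriptional regulators (TRs) associated with autism spectrum disorder in bulk cortex, and for mouse it deposited lists of ARID1B, FOXP1, and TCF7L2 (labelled TCF4) at E15.5 and E18.5. The E18.5 ARID1B list rests on 2 ChIP libraries (immunoprecipitation with an ARID1B antibody) and 2 input libraries (the sheared chromatin without antibody), all WT cortex and single-end. The list was called on the merged reads of both replicates, so it carries no spread between replicates and no difference between samples could be tested. The intervals below cover counting error only. Because the cortex was not sorted, a peak found in few cells and one that is weakly occupied in all cells cannot be told apart.

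ARID1B is one of the large ARID subunits of the canonical BAF (mammalian SWI/SNF) complex, which slides and evicts nucleosomes with the energy of ATP. It takes the place that ARID1A holds in other copies of the complex, binds DNA with little sequence preference of its own, and is brought to promoters and enhancers largely by other proteins. Loss of 1 copy of the human gene causes a syndrome of intellectual disability with autistic features, and BAF subunits are exchanged when cortical progenitors become neurons.

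The strength of a peak is given as the fold enrichment at its summit, that is, the ChIP reads over that base against a uniform background. This background came to 6.13 reads per base, and every fold in the list was a whole number of reads within 0.01. It was the same at every site, so no peak was corrected for the input at its own locus. Summits of the strongest distal peaks, which overlap no promoter, are shown first because short letter runs recur in many of them. They were picked as examples that hold a run, from the 8 strongest, of which the peak nearest Naa11 held none of the patterns searched and is not shown. The 2 promoter summits were also picked as examples from the 20 strongest, in which CATCTG was within 50 bp of the summit in 6 and the ETS run in that of Aimp1 alone. Over all promoter peaks, windows of 100 bp at the summit held CATCTG in 7.68% and the ETS run in 3.68%. Each sequence spans 50 bp to either side of the summit on the plus strand of GRCm38. Capitals mark CATCTG (read as CAGATG on the other strand), an E-box bound by neurogenic bHLH factors such as NEUROD and TCF4. In the sequence near Robo2 they mark CAGCTG, a palindromic E-box, in that near Olig3 CATATG, another E-box, and in the Aimp1 promoter CCGGAAG, the core bound by ETS factors. As the name of an E-box factor, TCF4 means the bHLH protein of the Tcf4 gene, not TCF7L2, which the series labels TCF4.
Nearest Cd109 (chr9:79004760-79004860): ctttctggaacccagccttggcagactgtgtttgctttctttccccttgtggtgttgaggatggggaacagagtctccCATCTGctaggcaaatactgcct
Btbd9 intron (chr17:30497699-30497799): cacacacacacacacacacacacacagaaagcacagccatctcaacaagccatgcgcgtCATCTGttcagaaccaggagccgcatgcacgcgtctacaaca
Nearest Triqk (chr4:13146980-13147080): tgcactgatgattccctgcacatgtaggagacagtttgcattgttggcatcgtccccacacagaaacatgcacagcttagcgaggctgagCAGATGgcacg
Nearest Plcb4 (chr2:135541224-135541324): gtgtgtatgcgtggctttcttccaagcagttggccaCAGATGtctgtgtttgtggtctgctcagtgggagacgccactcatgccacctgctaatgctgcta
Ebf1 intron (chr11:44626155-44626255): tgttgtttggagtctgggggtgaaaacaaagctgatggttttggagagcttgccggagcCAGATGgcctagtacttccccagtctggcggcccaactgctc
Nearest Robo2 (chr16:74598102-74598202): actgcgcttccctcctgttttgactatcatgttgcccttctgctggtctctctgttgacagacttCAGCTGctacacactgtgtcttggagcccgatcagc
Nearest Olig3 (chr10:19277312-19277412): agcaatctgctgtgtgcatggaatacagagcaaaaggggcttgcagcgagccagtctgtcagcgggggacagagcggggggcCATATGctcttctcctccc
Rgs3 promoter (chr4:62582826-62582926): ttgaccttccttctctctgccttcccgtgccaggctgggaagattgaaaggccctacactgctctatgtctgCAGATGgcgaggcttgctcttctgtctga
Aimp1 promoter (chr3:132683986-132684086): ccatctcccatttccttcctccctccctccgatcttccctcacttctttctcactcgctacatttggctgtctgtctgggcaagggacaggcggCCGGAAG

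Of the 20 strongest distal peaks, the one with the highest fold (31.1, 95% Poisson interval 27.2 to 35.5, 221 reads) lay in intergenic sequence on chromosome 9, 389 kb from the nearest protein-coding transcription start site (TSS), that of Cd109. A peak in an intron of Btbd9, a gene linked to restless legs syndrome, reached 29.0 (25.2 to 33.3). Next came an intergenic peak 79.2 kb from Olig3, which encodes a bHLH factor of the hindbrain and spinal cord, with a fold of 27.5 (23.8 to 31.6). The intervals of these 3 peaks overlap, so their order is not fixed by the counts.

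The other strongest distal peaks lay at varied distances from the nearest coding TSS. Ebf1 and Ebf3, transcription factors of neuronal differentiation, each held a peak within 9 kb of the TSS (25.8, 22.2 to 29.8, at 8.89 kb in Ebf1 and 24.3, 20.8 to 28.2, at 4.88 kb in Ebf3). The strongest peak assigned to Robo2, an axon guidance receptor gene, was 187 kb from its TSS (25.2, 21.7 to 29.2). Introns of Zfhx3, a homeobox gene, and of Erbb4, a neuregulin receptor, held peaks of 24.7 each, 344 kb and 802 kb from the TSS. Peaks assigned by distance to Egln3, Nrp2, Gm10577, and Plcb4 lay inside other genes, in introns of Npas3, a bHLH-PAS factor, Pard3b, a polarity gene, Cachd1, and 9630028H03Rik. The remaining distal peaks among the 20 were nearest Naa11, Triqk, Plcb4, Rabgap1l, Gm10577, Arl4a, Klf4, Gm6657, Lgr4, and Gm8797, with folds from 22.9 to 26.9. CATCTG was within 50 bp of the summit in 11 of the 20, against 21.3% of all distal peaks in windows of 100 bp. In all, 11 of the 20 lay in introns and 9 between genes, and the distance to the nearest coding TSS ran from 4.10 kb to 802 kb. The E15.5 ARID1B list had a peak at each of the 20 sites, with folds between 18.2 and 23.8.

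The strongest promoter peaks lay at genes of varied function. A promoter here is the 2000 bp upstream of the TSS of any transcript. The highest fold, 25.9 (22.4 to 30), was at Cwc22, which encodes a splicing factor. Its summit lay 11 bp downstream of the TSS (chromosome 2, 77943513 to 77951870). A second Cwc22 peak, of 23.8 (20.4 to 27.7), was 29186 bp wide and was the widest in the list. Peaks of 25.8 and 22.9 covered the non-coding genes Gm26917, Gm42418, and AY036118 on chromosome 17. At both loci the E18.5 FOXP1 list was also high, at 35.4 and 10.1 for the Cwc22 peaks and 21.9 and 22.8 for those on chromosome 17, as was the TCF7L2 list at the latter (39.2 and 37.2). A uniform background carries no local input value, so what these loci show in the input was not tested. Leaving out the 10 peaks at these genes changed the promoter share of the list from 27.6% to 27.5%.

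After those, Rgs3, a regulator of G-protein signaling, had a promoter fold of 24.3 (20.8 to 28.2) with the summit 0.725 kb upstream of the TSS. A peak of 23.8 (20.4 to 27.7) covered the shared promoter of Ak6, a nuclear adenylate kinase, Rad17, a checkpoint gene, and Taf9, a TFIID subunit. A peak of 23.7 (20.3 to 27.5) lay in the shared promoter of Adam1a and Mapkapk5, a stress-activated kinase. Btbd17 had 22.7 (19.4 to 26.5). Hlcs, which attaches biotin to carboxylases, had 20.8, Diaph3, an actin-nucleating formin, 20.6, Aimp1, a scaffold of tRNA synthetases that shares its promoter with Tbck, 20.5, and Cactin, a splicing-associated protein, 20.3. Nhlrc3, which shares its promoter with Proser1, had 20.9, Npsr1, the neuropeptide S receptor, 19.8, and Stx6, a syntaxin of endosomal traffic, 19.6. The other promoters among the 20 were those of H2af-ps, 4930466K18Rik, Gm47733, Gm26739, and 4933430I17Rik (shared with Pole3), with folds from 20.1 to 24.3. The E15.5 folds at the 20 sites were between 15.7 and 22.2, and the interval of the last of the 20 (16.5 to 23.2) overlaps that of the first.

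**Figure D1:**
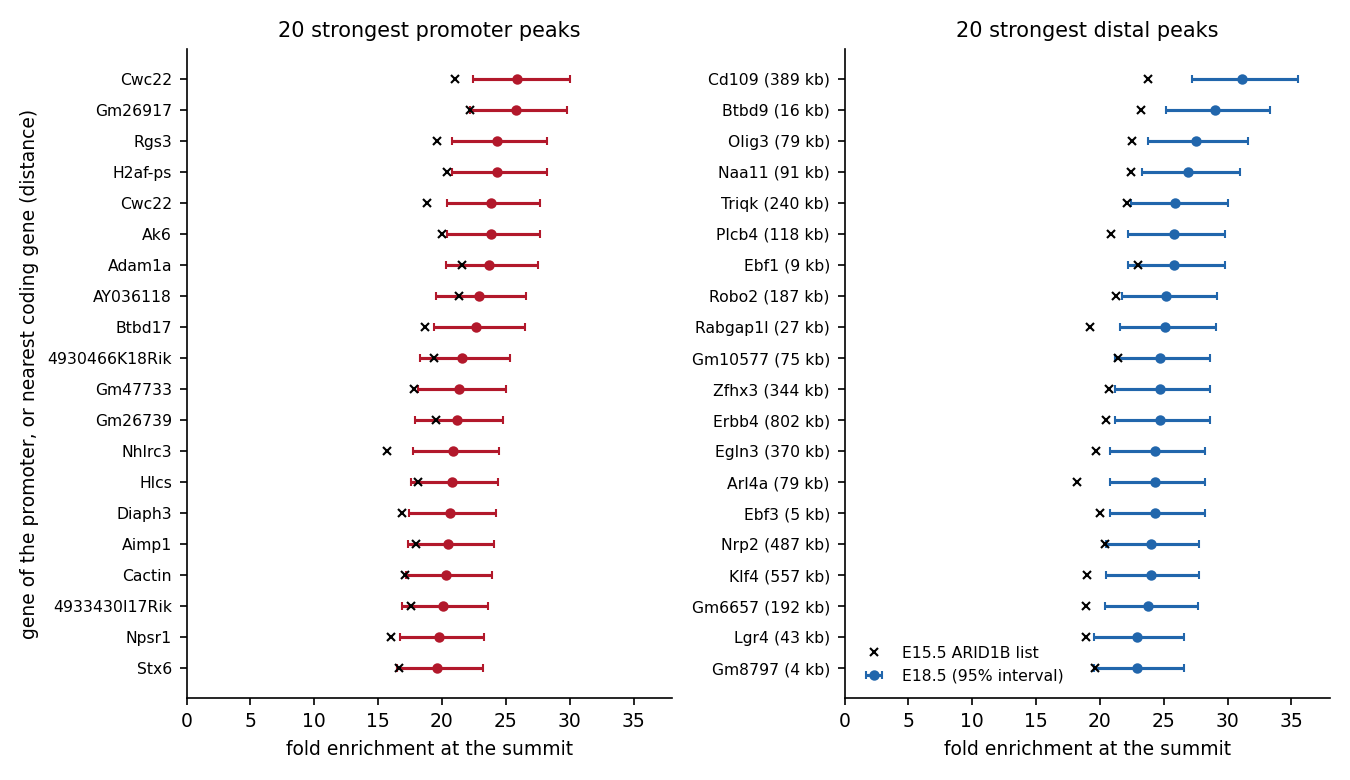
Fold enrichment at the summit of the 20 strongest promoter peaks (left) and the 20 strongest distal peaks (right) of ARID1B at E18.5, with 95% Poisson intervals as bars and the fold of the overlapping E15.5 ARID1B peak as crosses. Distal peaks carry the nearest protein-coding gene and its distance, and all 40 sites had an E15.5 peak, with a lower fold on that list's own background.

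Over the whole list, the median fold was 4.21 (quartiles 3.51 and 5.61), or 29 reads at the summit. The weakest peak had 18 reads and a fold of 2.66 (1.64 to 4.13), and at the median the interval was 2.86 to 5.98. Only 2401 peaks (3.54%) reached a fold of 10, and 80 reached 20. Single peaks near the median therefore cannot be ranked against each other. The median width was 437 bp (quartiles 286 and 707), and the peaks covered 37.6 Mb, or 1.53% of the autosomes.

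Introns held the largest share of the peaks and promoters the highest density. A peak that overlapped a promoter by at least 1 base was called a promoter peak, and each other (distal) peak took the class of its summit in GENCODE vM21. There were 26167 intron peaks (38.6%, 95% Wilson interval 38.2% to 39.0%), 19875 intergenic peaks (29.3%, 29.0% to 29.7%), 18677 promoter peaks (27.6%, 27.2% to 27.9%), and 3068 exon peaks (4.53%, 4.37% to 4.69%). Promoters made up 6.41% of the sequenced autosomal bases, so peaks were 4.30 times as frequent there as their length gives. For introns the ratio was 0.960, for exons 1.06, and for intergenic sequence 0.597. These ratios depend on the overlap rule: by the class of the summit base alone, 8.0% of peaks were in exons and 22.5% at promoters. In peaks per Mb, these classes had 122 (promoters), 27.1 (introns), 29.9 (exons), and 16.9 (intergenic).

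Promoter peaks had the highest median fold, whereas intron and intergenic peaks more often had a high fold. The median fold was 4.91 (quartiles 3.79 and 6.17) at promoters, 3.93 (3.37 and 5.19) in introns, 4.21 (3.51 and 5.47) between genes, and 3.79 (3.37 and 4.63) in exons. A fold of 10 was reached by 2.61% of promoter peaks against 3.54% of intron and 4.63% of intergenic peaks. Among the 1000 strongest peaks, 17.1% were at promoters, 39.0% in introns, and 41.1% between genes. The promoter share was 42.4% at ranks 5001 to 20000 and 19% past rank 40000. At a stricter limit, a −log10 p-value of 15 or more, which 24888 peaks reached, promoters were the largest class at 37.7%.

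**Figure D2:**
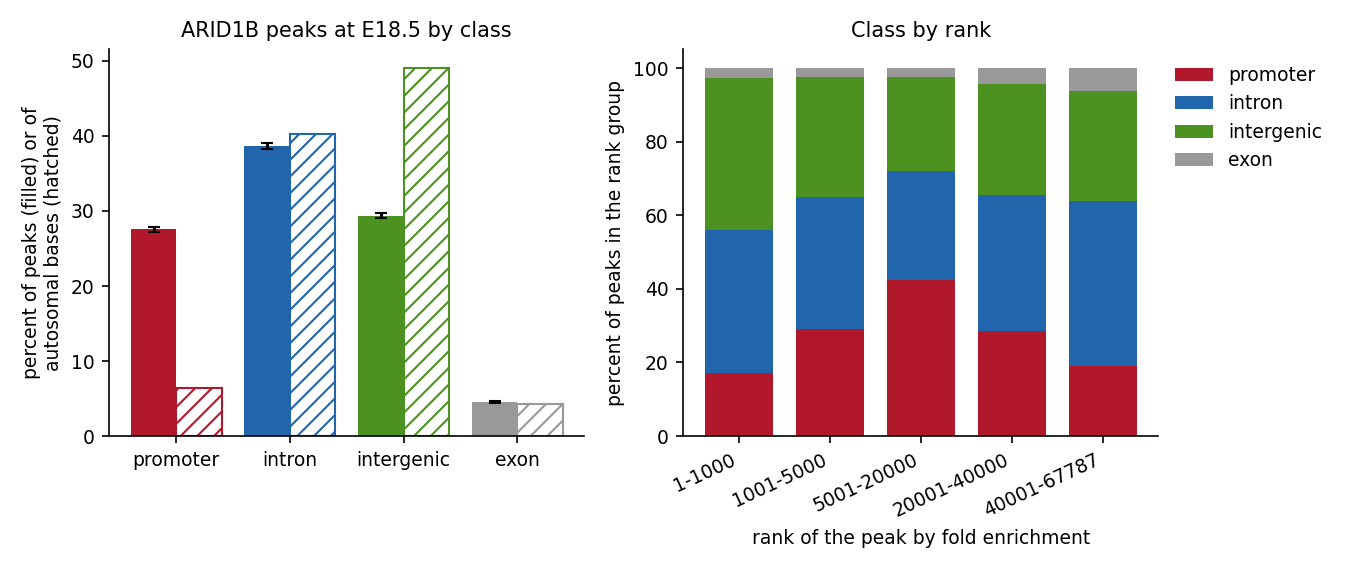
Left, percent of the 67787 ARID1B peaks in each class (filled, with 95% Wilson intervals) beside the percent of sequenced autosomal bases in that class (hatched). Right, the classes within groups of peaks ranked by fold enrichment, where promoters make up 17.1% of the 1000 strongest peaks and 42.4% of ranks 5001 to 20000.

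Exon peaks were few and split between non-coding exons (1048), coding sequence (1002), 3′ untranslated regions (746), and 5′ untranslated regions (272). The last had 3.04 times the frequency that their length gives, and the lowest median fold of these 4 kinds, 3.51. The 5 strongest exon peaks lay in coding sequence of Cdkn3, a cell cycle phosphatase (21.7), in a non-coding transcript 47.5 kb upstream of Fyn, a Src family kinase (21.6), in a 3′ untranslated region of Ephb1, an ephrin receptor (21.2), in a non-coding exon of Wwox (18.7), and in Mirg, a non-coding gene of the imprinted Dlk1 and Meg3 region (17.8).

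The summits of promoter peaks gathered at the TSS itself. Their median offset from the nearest TSS of any transcript was 34 bp upstream (quartiles 263 bp upstream and 64 bp downstream), and 60.8% were within 200 bp. Of the promoter peaks, 81.7% had the summit inside a promoter and the others had it outside. Distal summits were a median of 50.3 kb from the nearest coding TSS (quartiles 14.9 kb and 150 kb). Within 5 kb there were 5952 (12.1%), and beyond 500 kb 2735 (5.57%). The median fold was 3.65 within 5 kb and 4.49 beyond 500 kb.

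The strong peaks recurred at the earlier stage. All of the 5000 strongest peaks overlapped a peak of the E15.5 ARID1B list, against 68.2% of the peaks past rank 40000. In total, 85.6% of the E18.5 peaks overlapped an E15.5 peak and 78.2% of the 70709 E15.5 peaks overlapped one at E18.5.

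Short letter runs differed between promoter and distal summits. Windows of 200 bp centered on the summits were searched on both strands for 22 patterns and set beside windows of the same length 2000 bp to either side that held no peak (90935 for distal and 34105 for promoter peaks). CATCTG was in 33.9% of distal windows (33.5% to 34.3%) and in 14.9% of their flanks, a ratio of 2.28. By comparison, 15.4% of 23960 windows spaced along the autosomes and 9.36% of 20775 windows at coding TSSs held it. CAGCTG was in 20.3% of distal windows (flanks 8.50%, ratio 2.39), and TTGGCA, the half-site of NFI factors, in 23.8% (flanks 9.88%, ratio 2.40). GTTGCCA, a half-site of RFX factors, which regulate ciliary genes, was in 4.51% (flanks 1.94%, ratio 2.32), ATGCAAAT, the octamer of POU factors, in 2.56% (ratio 1.92), TAATTA, the core of homeobox factors, in 10.7% (ratio 1.66), and TGTTTAC, the forkhead core, in 4.07% (ratio 1.41). TCAAAG (TCF/LEF, 0.876), ACAATG (SOX, 0.847), AGGTGTNA (T-box, 0.973), and TGANTCA (AP-1, 0.977) had ratios under 1. The ratio of the T-box run was 1.02 with flanks 5000 bp away and 1.23 among the distal peaks of the 5000 strongest. The other patterns were in few distal windows. Those that hold a CpG had ratios of 4.14 for EGR (0.0774% of windows), 3.76 for NRF1 (0.128%), 3.16 for SP/KLF (1.28%), 1.56 for ETS (1.01%), 1.37 for the cAMP response element (0.183%), and 0.944 for YY1 (0.108%). The ratio was 1.35 for NFY (3.41%), 1.47 for MEF2 (0.591%), 1.5 for REST (0.407%), and 0.671 for ZNF143 (0.0937%).

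The share with CATCTG followed the strength of the distal peaks. It was 60.7% (57.3% to 63.9%) among the 829 distal peaks of the 1000 strongest, 53.8% at ranks 1001 to 5000, 43.2%, 34.5%, and 26.5% (26.0% to 27.1%) past rank 40000. For TTGGCA the same groups ran from 33.5% to 20.1%, and for CAGCTG from 29.1% to 17.9%. Of the 3665 distal peaks among the 5000 strongest, 2028 had CATCTG, 496 of them more than once, and the match closest to the summit was a median of 29 bp away. At least 1 of the 2 E-boxes and the NFI run was present in 80.0% of these 3665. The median GC content of the 3665 was 46.5% at the summit and 42.5% in the flanks, and for all distal peaks 47.0% and 44.0%. The part of base composition in the ratios was not tested.

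Which of the 10 possible E-boxes (CANNTG) were frequent was counted for the same 3665 peaks, a choice made after the values above were known. CATCTG had a ratio to the flanks of 3.89. The next was CAGCTG, with a ratio of 3.59, and then CATATG, with a ratio of 3.28 and in 20.3% of windows. The other 7 E-boxes had ratios from 0.931 for CACCTG up to 1.46 for CAACTG. The palindrome bound by MYC and CLOCK was in 2.24% of summit windows and 2.01% of flanks.

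At promoters, CATCTG was in 13.4% of summit windows and 14.5% of flanks (ratio 0.924, or 1.05 in windows of 100 bp), although within 500 bp its matches were most frequent next to the summit (24.5 per 1000 peaks in 25 bp, against 16.0 and 14.3 at the ends). Runs typical of CpG-rich promoters had higher ratios. GGGGCGGGG, bound by SP and KLF factors, was in 9.34% of promoter windows (flanks 0.698%), CCGGAAG in 7.64% (flanks 0.792%), AAGATGGCG, bound by YY1, in 1.49% (flanks 0.0880%), GCGCATGCG, bound by NRF1, in 1.26% (flanks 0.0352%), and TGACGTCA, the cAMP response element, in 1.26% (flanks 0.120%). At all coding TSSs these shares were higher, at 12.3%, 9.64%, 1.96%, 1.67%, and 1.94%. The median GC content was 62.0% at promoter summits and 45.5% in their flanks, and its part in these ratios was not tested. The share of promoter peaks with CATCTG varied with rank, from 35.1% of the 171 among the 1000 strongest to 16.0%, 10.6%, 13.0%, and 16.1% in the groups that followed.

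The consensus of CTCF, the insulator protein, had the highest ratio at distal peaks (1.21% against 0.0902%, ratio 13.4) and the opposite relation to strength. It was in 0.241% (0.0662% to 0.875%) of distal peaks among the 1000 strongest and in 1.65% (1.49% to 1.83%) of those past rank 40000. Its matches were spread around the summit, with the most per peak in the bin centered 87.5 bp away, whereas those of CATCTG peaked in the bin next to the summit.

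**Figure D3:**
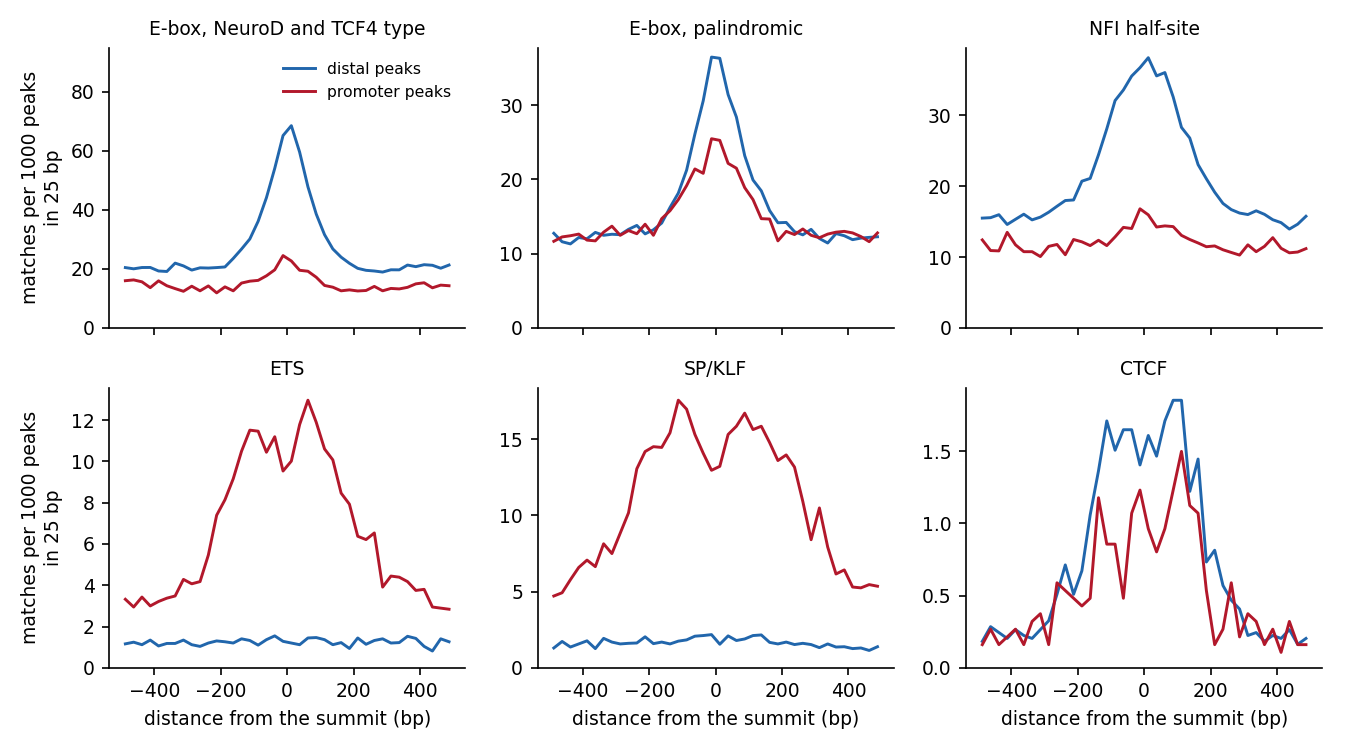
Matches per 1000 peaks in bins of 25 bp by distance from the summit (bp), for distal peaks (blue) and promoter peaks (red), on axes that start at 0 and differ between panels. The E-box of the NeuroD and TCF4 type reaches 68.6 matches per 1000 distal peaks next to the summit and 20.5 to 21.3 at 500 bp, while ETS and SP/KLF reach their highest values at promoter peaks and the CTCF matches at distal peaks spread more widely.

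Of the 20807 autosomal protein-coding genes, 12369 (59.4%, 58.8% to 60.1%) had an ARID1B peak in a promoter, and 8773 (42.2%) had one past the stricter limit. These are the shares against which the gene lists below are read. The fold given for a gene is the highest over all its TSSs, and for some genes that peak lay inside the gene, at an internal TSS. Those named below for which it did so by the largest distances were Ank3, Diaph3, Neb, Tcf4, Nfia, Cux2, Kif5c, Stag1, and Ttn, and it was also well inside Lrp8, Ndel1, Smarcc1, Dlg4, Lhx2, Nr4a2, and Rpl3. The number of genes with a promoter fold of 10 or more was 449 (2.16%). Whether a gene had a peak tracked the CpG content around its TSS (observed over expected CpG within 500 bp). With a ratio under 0.2, 10.6% of 4610 genes had a promoter peak (9.73% to 11.5%), and at 0.8 and over, 95.5% of 4430 genes (94.9% to 96.1%). The median fold of genes with a peak was 5.33 in the first of these groups and 6.17 in the last. The share also rose with the number of bases that count as promoter, from 27.3% of genes with at most 2000 to 94.7% of those with over 10000, so genes with many annotated TSSs had more chances to be counted.

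**Figure D4:**
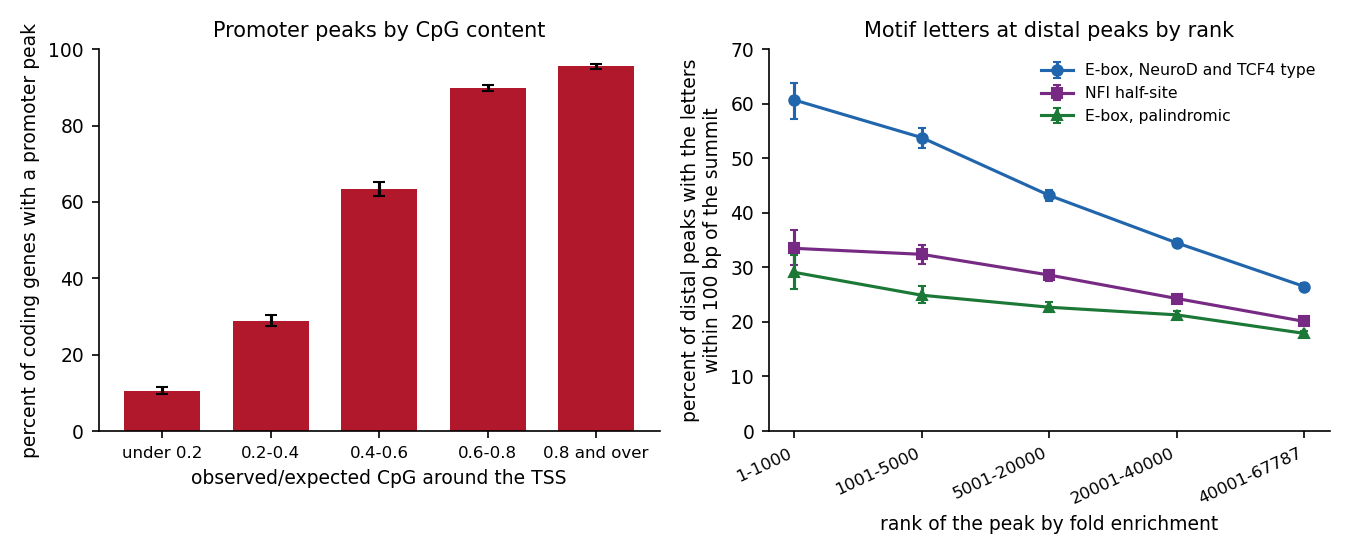
Left, percent of autosomal protein-coding genes with an ARID1B promoter peak by observed over expected CpG around the TSS, with 95% Wilson intervals, which climbs from 10.6% to 95.5%. Right, percent of distal peaks with 3 letter patterns within 100 bp of the summit by rank of the peak, where the E-box of the NeuroD and TCF4 type falls from 60.7% to 26.5%.

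Nearly all genes of the BAF complex itself had a promoter peak. It was found at 30 of 31 genes (96.8%, 83.8% to 99.4%), and at 27 past the stricter limit. Of the ARID subunits, Arid1a had the highest fold (13.5, 10.9 to 16.4, chromosome 4, 133753046 to 133755090), Arid2 7.71, and Arid1b, the gene of the antibody's target, 5.61 (4.03 to 7.62, chromosome 17, 4993927 to 4994653). The interval of Arid1a lay above that of Arid1b. The Arid1a peak lay inside the gene, which starts at 133756769 on the minus strand, whereas the Arid1b peak spanned its gene's start at 4994332. The ATPase genes Smarca4 (7.71) and Smarca2 (7.15) had overlapping intervals (5.83 to 10.0 and 5.35 to 9.39). Core and scaffold subunits ranged from 5.33 (Smarcd2) to 9.68 (Smarcd3), with Smarcc1, Smarcc2, Smarcb1, Smarce1, and Smarcd1 between them. The other subunits with a peak were Actb (8.98), Bcl7a, Bcl7b, Bcl7c, Bicra, Bicral, Pbrm1, Brd7, Brd9, Dpf2 (4.21), and the zinc finger genes Bcl11a (5.61) and Bcl11b (4.49). Of the subunits that mark the neuronal form of the complex, Actl6b had 6.03, Dpf1 6.45, Dpf3 4.07, and Ss18l1 7.29. Of those that mark the progenitor form, Actl6a had 5.05 and Ss18 7.15, while Phf10 was the 1 gene without a promoter peak, the nearest being 3286 bp from a TSS. Bcl11a was the nearest coding gene of 53 distal peaks, Arid1b and Bcl11b of 32 each, and Smarca2 of 20.

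The genes of the study's 5 TRs all had promoter peaks past the stricter limit. Foxp1 had 7.57 (5.71 to 9.86), Tbr1, a T-box factor of deep-layer neurons, 6.03 (4.39 to 8.10), and Tcf7l2, a Wnt effector, 5.19 (3.68 to 7.13), with the values of Bcl11a and Arid1b given above. These intervals overlap.

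Lists of cell type markers gave different shares. All 17 radial glia genes, all 10 genes of intermediate progenitors, and all 13 of upper-layer neurons had a promoter peak, as did 14 of 16 deep-layer genes and 14 of 17 interneuron genes. Past the stricter limit were 11 radial glia, 7 intermediate progenitor, 13 upper-layer, 8 deep-layer, and 3 interneuron genes. The last are 17.6%, below the 42.2% of all coding genes. Short of that limit were Pax6, Sox2, Nes, Notch1, Id4, and Tnc of radial glia and Eomes, Neurog1, and Neurod4 of intermediate progenitors. Of deep-layer genes with a peak these were Bcl11b, Zfpm2, Ldb2, Ntsr1, Etv1, and Otx1. Of interneuron genes they were Dlx1, Dlx5, Dlx6, Gad1, Lhx8, Sp8, Sp9, Maf, Npy, Calb2, and Slc32a1. Among radial glia genes, the highest folds were 8.70 at Hes1, a Notch effector, and at Fabp7, a fatty acid binding protein of radial glia, followed by Lhx2 (8.13) and Sox9 (7.57), transcription factors of progenitors. Among genes of intermediate progenitors, the bHLH factor Neurod1 had 10.1 and the zinc finger factor Insm1 8.84, with Gadd45g at 9.26 and Btg2 at 7.99. Upper-layer genes included Bhlhe22 (8.98), Pou3f3 (7.99), and Cux2 (7.01), all transcription factors of callosal or upper-layer neurons. Deep-layer genes were led by Diaph3 (20.6) and Foxp2 (18.1, 15.1 to 21.5), a forkhead factor of corticothalamic neurons, and then Tle4 (10.7) and Nr4a2 (7.43). Crym and Cplx3 had none. Of the interneuron genes, Gad2 had a fold of 5.05, Dlx2 4.91, and Sp9 4.49, and Lhx6, Nkx2-1, and Sst had none.

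The lists of glia and of other cells gave shares from 0% to 75%, and no difference between lists was tested. Of 12 astrocyte genes 9 had a promoter peak (75%, 46.8% to 91.1%), 3 of them past the stricter limit, led by Nfia (18.1, 15.1 to 21.5, at a TSS inside the gene), Sox9, Slc1a2 (6.17), and Slc4a4 (4.77), while Aldh1l1, S100b, and Gjb6 had none. Of 13 oligodendrocyte genes 5 had one (38.5%, 17.7% to 64.5%), and none of those reached the stricter limit. The highest were Pdgfra, the receptor of oligodendrocyte precursors (4.77), Nkx2-2 (4.35), Cnp (4.21), and Mbp, a myelin protein (4.07). For microglia it was 2 of 14 (among them Tmem119, 6.45), for endothelial cells 2 of 14 (Esam, 3.51, and Flt1, 3.37), for pericytes 3 of 10 (Vtn, 6.45, Kcnj8, 3.23, and Notch3, 3.09), and for erythroid cells 2 of 9 (among them Epor, 3.65). Of genes from tissues outside the brain, 0 of 16 liver genes (upper bound 19.4%), 4 of 16 skeletal muscle genes, and 3 of 15 keratinocyte genes had a promoter peak. The muscle gene with the highest fold, Neb (10.7), had its peak at a TSS inside the gene, and Actn3 (5.47), Mylpf (5.19), and Ttn (3.51) followed. The keratinocyte genes were Trp63 (5.05), Krt1 (4.49), and Krt10 (4.35). Past the stricter limit were 1 microglia, 0 endothelial, 1 pericyte, 0 erythroid, 3 muscle, and 1 keratinocyte gene.

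CpG content differed between these lists, but not always in the order of their shares. The median observed over expected CpG at the TSS was 0.838 for BAF genes and 0.718 for radial glia genes, against 0.568 for all coding genes, and 0.215 for microglia and 0.209 for liver genes. For astrocyte (0.372), oligodendrocyte (0.365), and endothelial genes (0.365) it was nearly alike although their shares were 75%, 38.5%, and 14.3%, and pericyte genes had 0.452 with a share of 30%. Its part in the differences between lists was not tested.

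Genes of the proneural and neuronal bHLH family, most of whose proteins bind E-boxes (the Id proteins do not bind DNA), had a promoter peak at 20 of 21 members (15 past the stricter limit). Hes6, an antagonist of Hes1, was highest (14.3, 11.7 to 17.4), followed by Neurod2 (10.8), Id2, an inhibitor of bHLH factors (10.5), and Tcf4, their dimerization partner (10.2). Olig1 had none, with the nearest peak 1933 bp from its TSS. In the Notch pathway 29 of 30 genes had one, led by Hes6, the endocytic adaptor Numbl (9.26), Hes1, and the coactivator Maml3 (8.70), and Heyl had none. In the Wnt pathway it was 36 of 42, led by β-catenin (Ctnnb1, 9.54), the receptor gene Fzd1 (9.12), Dvl2 (8.42), and the kinase gene Gsk3b (7.43). The 6 without were 5 ligands (Wnt1, Wnt3, Wnt3a, Wnt8b, and Wnt10b) and the coreceptor gene Lrp5, named here after their values were seen.

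Genes linked to autism were nearly all occupied. All 35 chromatin and transcription regulators on that list had a promoter peak, 32 of them past the stricter limit, led by Foxp2, the histone methyltransferase gene Kmt2a (14.3, 11.7 to 17.4), Phf12 (11.4), and the remodeler gene Chd2 (11.2). Of the 31 synaptic and excitability genes 30 had one, led by Dlg4, which encodes the scaffold PSD-95 (12.2), and Ank3, the ankyrin of the axon initial segment (11.1). The exception was Dscam, whose nearest peak was 534 bp from a TSS. The promoters of these lists were long, with medians of 8937 and 9822 bases, and 84% of all coding genes with over 6000 and up to 10000 promoter bases had a peak. The part of promoter length in these shares was not tested.

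Genes of neuronal function had promoter peaks at nearly all members of each list, and the share past the stricter limit varied. Among voltage-gated potassium and calcium channels 32 of 33 genes had one and 16 reached the stricter limit, with Cacna1b at 9.54, Cacnb3 at 8.56, Kcnh5 at 7.85, Kcnq3 at 7.15, and none at Kcnh1. Of the glutamate and GABA receptor genes 30 of 33 had one and 11 reached it, with Gria2 at 8.28, Grik3 at 6.87, Gabbr1 at 6.03, Gria1 at 5.75, and none at Grin2c, Gabra5, or Gabrd. Those 11 are 33.3% of the list, below the 42.2% of all coding genes past that limit. All 42 axon guidance genes had one (34 past it), led by Sema7a (11.4), Efnb2 (9.54), Plxnb1 (7.71), and Epha7 (7.57). The presynaptic release machinery had 29 of 30, with the vesicular glutamate transporter gene Slc17a7 (12.9), Snap25 (8.13), and Vamp2 (7.57) among the highest and none at Syt11. Of the genes for microtubules and neuronal migration, 26 of 27 had one, led by the kinesin gene Kif5c (13.0), the reelin receptor gene Lrp8 (9.40), Stmn1 (7.99), and Ndel1 (7.85), and Doc2b had none, its nearest peak being 420 bp away. Immediate early genes, which respond to neuronal activity, had 23 of 24, with Jund (10.4), Jun (8.42), Homer1 (7.99), and Btg2 (7.99) highest and none at Egr4.

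Genes of housekeeping and chromatin complexes were also nearly all occupied. All 69 genes of cytosolic ribosomal proteins had a promoter peak, 67 past the stricter limit, led by Rps12 (17.0, 14.1 to 20.3), Rpl3 (12.5), Rpl9 (11.6), and Rps24 (10.8). Nuclear genes of oxidative phosphorylation had 43 of 44, led by Ndufa10 (12.6), Ndufa9 (12.1), Cox4i1 (8.84), and Atp5d (8.56), with none at Atp5o. Genes of other remodelers, including NuRD and Polycomb, had 41 of 42, led by Bmi1 (11.5), Chd2, Mtf2 (10.4), and Chd3 (10.4), and Mta1 lacked one by 295 bp. Of cohesin and CTCF genes 10 of 11 had one, led by Stag1 (13.2, at a TSS inside the gene), Zfp143 (7.57), Rad21 (7.15), and Wapl (7.01), and Ctcfl, which is expressed in testis, had none.

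Few members of 2 clustered gene families had one. Only 4 of 21 clustered protocadherin genes (interval 7.67% to 40.0%) had a promoter peak, which were Pcdhgc3 (6.31), Pcdhac2 (4.49), Pcdhgc4 (4.35), and Pcdhac1 (3.51), all variants of the C type. The remaining C-type gene, Pcdhgc5, had none. Hox genes, which are kept silent in the forebrain, had 11 of 39 (28.2%, 16.5% to 43.8%), with Hoxa4 (5.05), Hoxa7 (4.21), Hoxa9 (3.79), and Hoxc6 (3.79) highest and 1 past the stricter limit. The median CpG ratio of these lists was 0.566 and 0.679, and 63.3% to 89.9% of all coding genes had a promoter peak in the bins of CpG ratio from 0.4 to 0.8. Their promoters were short, however, with medians of 2019 and 2176 bases against 4000 for all coding genes, and a promoter peak was found at 27.3% of genes with at most 2000 promoter bases and 52.1% of those with more, up to 4000. The part of promoter length in these shares was not tested.

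**Figure D5:**
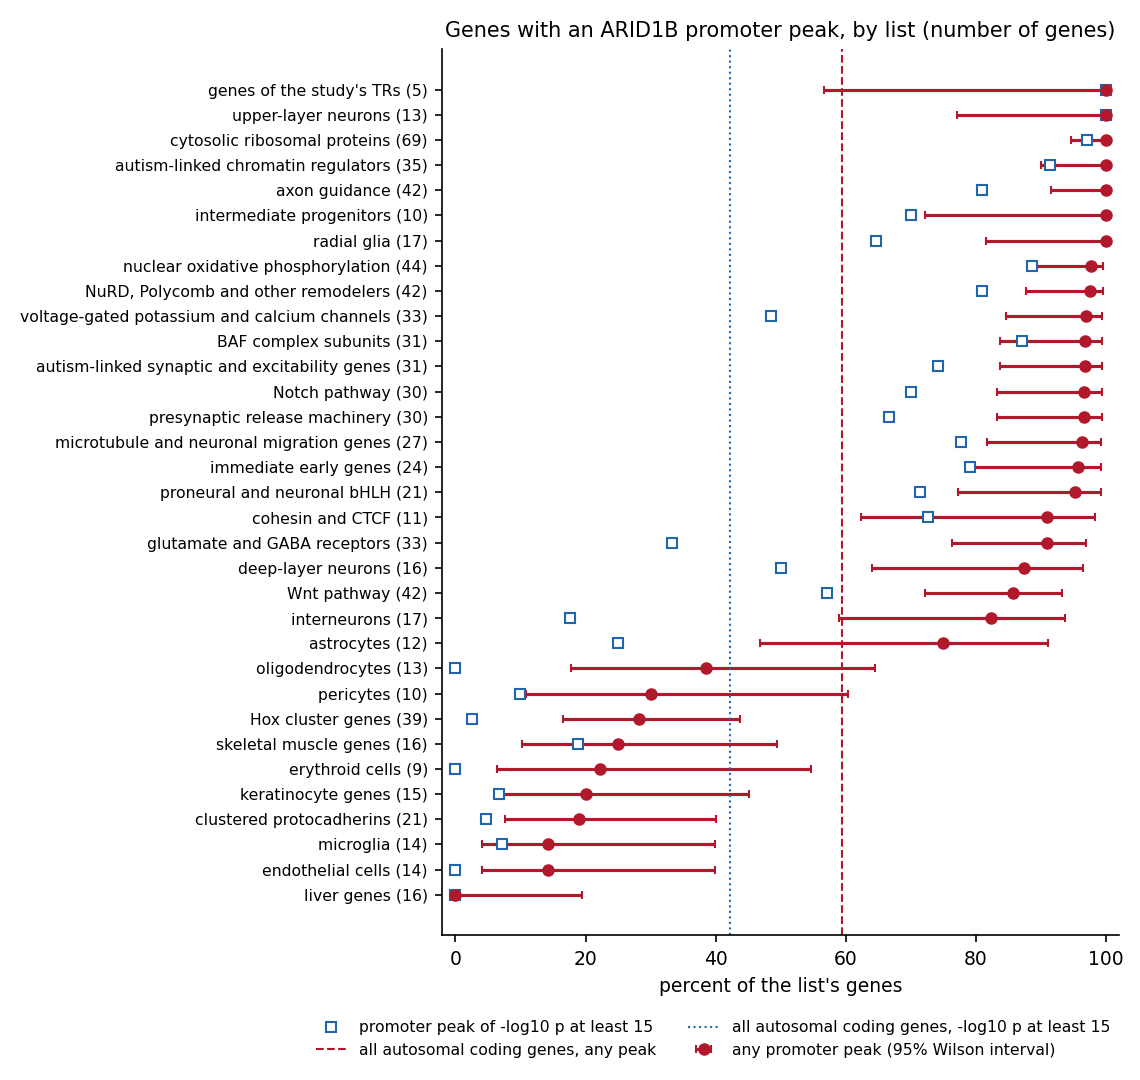
Percent of the members of each gene list with an ARID1B promoter peak (filled points, 95% Wilson intervals) and past the stricter limit (open points), with the number of members beside each list. The vertical lines mark the shares over all autosomal protein-coding genes, 59.4% and 42.2%, and the lists of liver, microglia, endothelial, and protocadherin genes lie to the left of the first line.

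Distal peaks were unevenly shared among genes. Assigned to the nearest coding TSS, they came to a mean of 2.36 per gene and a median of 0, since 11899 genes (57.2%) were nearest to none. The 493 genes with 20 or more held 31.8% of the distal peaks. Auts2, a regulator of neuronal migration that is linked to autism, had most, with 149, of which 125 lay inside the gene, and it had a promoter fold of 14.2. Zfp608 followed with 120, then Tcf4 and Tenm4, a teneurin adhesion receptor gene, with 103 each, Gse1, whose protein belongs to a histone deacetylase complex, with 96, and Tenm2 with 91. Next were Celf2 (90) and Rbfox1 (81), which encode regulators of splicing, Adgrl2 (89), Nfib, an NFI factor gene (79), Tenm3 (78), and Robo1 (71).

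The sequence nearest to these genes differed in length, and per 100 kb of it the order changed. The average over all genes was 1.99 distal peaks per 100 kb, and the 12 had from 2.74 (Tenm3) to 26.6 (Gse1), with 11.7 at Tcf4, 9.82 at Nfib, 9.72 at Zfp608, and 7.69 at Auts2. The ranking depends on which TSSs count: with TSSs of any transcript, non-coding ones included, Auts2 kept 29 peaks, Zfp608 20, and Nfib 11, but Tcf4 81 and Rbfox1 67. Among the gene lists, the density ran from 0.749 per 100 kb near erythroid genes to 7.53 near bHLH genes. It was 7.25 near genes of intermediate progenitors, 5.43 near radial glia genes, 5.42 near autism-linked chromatin regulators, 4.40 near both astrocyte and oligodendrocyte genes, and 4.08 near BAF genes.

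The peaks also lay close together. With gaps of at most 12.5 kb, 32445 distal peaks (66.1%) were in 10161 clusters of 2 or more, and 208 clusters had at least 10. The largest, in introns of Gse1 (chr8:120361275-120533236), had 53 peaks in 172 kb with a highest fold of 11.2, and a second one in Gse1 (chr8:120256946-120348036) had 30. The cluster in Tcf4 (chr18:69496105-69633857) had 52 peaks in 138 kb, with a highest fold of 7.29, so it was made of weak to moderate peaks. Those at Sez6, Pipox, and Myo18a (33 peaks), Cd244a, Itln1, and Alyref2 (30), Foxo6 and Edn2 (30), Ttc28 (30), Tcf20 and Nfam1 (30), and E130114P18Rik (27) were also among the 10. The cluster near Cd244a (chr1:171515441-171569557) was the densest of these, with 5.54 peaks per 10 kb. Of the peaks in each of the 10 clusters, 63.5% (Tcf4) to 97.0% (Sez6) overlapped an E15.5 ARID1B peak.

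Long genes held many of the intron peaks. In total, 5355 coding genes (25.7%) held an intron peak. There were 2.33 intron peaks per 100 kb of coding genes. The 953 genes longer than 200 kb had 50% of the intron summits that lay in coding genes and 40.2% of coding gene bases, introns and exons together. The gene models with most were Gm20388 (226 in 4435 kb, a span that includes other genes such as Gse1), Fgfr2 (120 in 2961 kb as annotated), Auts2 (118), and Gse1 (97). Then came Tenm2 (83), Tenm4 (83), Tcf4 (74), Ttc28 (69), Dab1, which encodes the reelin signaling adaptor (68), and Nfib (66). Per 100 kb, Gse1 (27.5), Tcf4 (21.4), Ttc28 (16.8), Nfib (15.9), Tenm4 (11.2), and Auts2 (10.7) were above the others of the 10.

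The DNA under the summits differed by class beyond the letter runs. The median GC content in the 200 bp around the summit was 62.0% at promoters, 54.5% in exons, 47.5% in introns, and 46.0% between genes, against 42.0% in windows spaced along the autosomes. The observed over expected CpG ratio was 0.706, 0.418, 0.244, and 0.234 in the same order, against 0.148. Between 1.14% and 2.06% of the windows of each class were mostly repeat-masked, against 27.3% of the spaced windows. Reads of low mapping quality had been removed before peak calling, and how many repeats this hid was not tested.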

How the data were processed

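ChIP-seq was measured in wild-type mouse cortex, with 2 ChIP and 2 input libraries for ARID1B at E18.5. The authors aligned single-end reads to mm10 with BWA 0.7.15, kept reads with a mapping quality of at least 30, compared peaks called per replicate, then merged the reads of replicates and called peaks again with MACS2 2.2.7 (as the submitters' processing notes name them) at q 0.01, with reads extended to 200 bp and a constant background. The deposited peak list gives a fold enrichment (a ratio), a −log10 p-value, a −log10 q-value, and a display score per peak, and it holds no value per library. Total reads per library were not given in the sources used here. Depth was therefore read from the fold, (reads + 1)/(background + 1), which gave whole reads, with exact 95% Poisson intervals, while shares of peaks or genes have 95% Wilson intervals. One list from merged libraries allows no test between samples.

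Peaks on chromosomes 1 to 19 were annotated with GENCODE vM21 (GRCm38) in Python 3.11.15 (numpy 2.4.6, pandas 2.3.3, scipy 1.17.1). The scripts were tested on simulated data. The members, gene lists, and motifs were chosen with earlier results of these data known. Named were the 20 strongest promoter and distal peaks, the 12 genes nearest to most distal peaks, the 10 largest clusters, the 5 strongest exon peaks, the 10 genes with most intron peaks, and in each gene list the 4 members of highest fold with up to 5 members that lacked a peak, plus the BAF and TR genes. Listed genes that matched no autosomal coding gene of the annotation were left out. Values of some genes that the rule for naming takes in are not reported here. Alternatives covered thresholds, promoter definition, overlap rule, TSS set, motif window, flank distance, and cluster gap.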

Additional observations from a re-analysis of the deposited data

Results flagged for a closer look

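The E18.5 ARID1B list also has peaks outside chromosomes 1 to 19, which none of the results above used, and each of these places is listed here because it holds signal. There were 647 peaks on the X chromosome, or 3.78 per Mb against 27.5 on the autosomes, with a median fold of 3.93 and a highest fold of 10.7. A promoter peak was found at 207 of 948 X-linked coding genes (21.8%, 95% Wilson interval 19.3% to 24.6%), against 59.4% of autosomal ones. The X chromosome had 0.945% of the peaks of this list, and 0.945% to 1.36% over the 6 lists. There were 9 peaks on the Y chromosome, 4 on the mitochondrial genome, and 25 on unplaced scaffolds, with highest folds of 7.85, 28.6, and 21.7. The difference between the X chromosome and the autosomes was not tested, as the list has no replicates.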

How the results depend on the processing

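No paired analysis was possible because the list was called on merged reads and the files used here hold no values per replicate, and for the same reason no replicate could be left out. At a −log10 p-value of 15 or more, 24888 peaks were left, with 37.7% at promoters, 31.8% in introns, 27.7% between genes, and 2.69% in exons. With a fold of at least 5 it was 23341 peaks and 38.1%, 31.7%, 27.6%, and 2.63%. In the same order of classes, promoters of 1000 bp to either side of the TSS gave 30.2%, 36.6%, 30.1%, and 3.05%, TSSs of protein-coding transcripts only gave 21.2%, 41.8%, 30.8%, and 6.24%, and a peak that lies mainly inside the promoter gave 22.5%, 40.0%, 30.2%, and 7.29%. The class of the summit base gave 22.5% for promoters, 40.0% for introns, and 8.0% for exons. So promoters ranked first under the stricter thresholds and introns under the others. The genes with a promoter peak numbered 8422 to 12716 over these settings, against 12369. The number of genes nearest to 20 or more distal peaks was 107 rather than 493 when TSSs of any transcript counted. The CATCTG ratio at distal peaks was 2.82 in windows of 100 bp, and 42 rather than 208 clusters had at least 10 peaks with gaps of up to 5000 bp. With those gaps the largest cluster was near Foxo6, with 24 peaks, and no longer in Gse1. At promoters, the CATCTG ratio of 0.924 became 1.05 in windows of 100 bp. The setting without the peaks at Cwc22, Gm26917, Gm42418, and AY036118, chosen after seeing the data, left 67777 peaks and a promoter share of 27.5%. Of the 33 gene lists, 19 kept a count within 1.5 times of the first one at the stricter p and 32 with the other promoter. At 18 reads the interval of a fold is 1.64 to 4.13, so weak peaks cannot be ranked.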

Other observations

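Promoters of non-coding genes were bound to very different degrees. Of genes annotated as bidirectional promoter lncRNAs, 162 of 190 (85.3%, 79.5% to 89.6%) had a promoter peak, and of processed transcripts 363 of 753 (48.2%). For antisense genes it was 894 of 2913 (30.7%), for lincRNAs 1019 of 5209 (19.6%), and for miRNAs 323 of 2054 (15.7%). With genes whose promoters overlap that of a coding gene left out, the shares were 61.5% for bidirectional promoter lncRNAs (16 of 26), 31.9% for processed transcripts, 18.8% for antisense genes, 15% for lincRNAs, and 9.14% for miRNAs. Processed pseudogenes had 2.97% of 8924, and 0 of 218 immunoglobulin variable genes had a peak (upper bound 1.73%).

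Of 2045 6-letter runs compared at the 3665 distal peaks among the 5000 strongest, 232 were at least 2 times as frequent at the summit as in the flanks. CATCTG was at place 17 by ratio, and it was in 55.3% of these peaks. All runs placed above it hold a CpG, and each was in 1.23% to 7.75% of these peaks, with CGCGGC first (ratio 6.24). This comparison was chosen after the values of the fixed patterns were seen.

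The density of peaks ranged from 22.2 per Mb on chromosome 14 to 36.5 per Mb on chromosome 11. Chromosome 7, with 13.9 coding genes per Mb, had 26.4 peaks per Mb, while chromosome 11, with 13.4 coding genes per Mb, was the highest.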
